A study of Drosophila melanogaster with 2 samples.

Results

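The Cpr genes of Drosophila melanogaster were taken as the protein-coding genes whose symbol starts with Cpr followed by a number, which gave 70 of the 13968 protein-coding genes on the 7 chromosome arms. Worniu, a zinc finger protein of the Snail family made by wor and known from neuroblasts, was immunoprecipitated with an anti-GFP antibody from whole embryos of a wor-GFP strain that makes a wor-eGFP fusion protein, collected at 0 to 18 hours of age, and the recovered DNA was sequenced. There was 1 group, wor-eGFP, with 2 replicates that the labels number as biological, and no untagged or otherwise treated group. The files are lists of peaks, so the depth of each library is unknown, and no p-value across embryos can be had. Chromatin came from every tissue of the embryo, and chromatin of neuroblasts cannot be told apart from that of the epidermis.

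Cpr proteins are structural proteins of the insect cuticle, the layer of chitin and protein that the epidermis lays down outside its apical surface. They carry the Rebers-Riddiford consensus, a conserved stretch through which they bind chitin. The genes are short, lie largely in tandem clusters, and different sets of them are active when a new cuticle is made, the first time late in embryonic life. Neuroblasts leave the same embryonic ectoderm from which the epidermis forms.

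Few Cpr genes had a reproducible Worniu peak near a start, and none had one at the promoter itself. A gene was called bound where the summit of a peak of the conservative list lay within 2 kb of one of its annotated transcript starts. The conservative list holds peaks made from both replicates that passed the irreproducible discovery rate (IDR), a measure of how well the ranks of peaks agree between 2 sets, at 0.01. Of the 70 Cpr genes 4 were bound, 5.71%, with a 95% Wilson interval of 2.24% to 13.8%. Of all 13968 protein-coding genes 16.5% were bound by the same rule. Genes of like length and spacing were the 4269 other protein-coding genes with a length of 605 to 4739 bp and a distance of 1157 to 7006 bp to the nearest start of another gene, the 10th to 90th percentiles of the Cpr genes. Of these 369 were bound, 8.64%, with an interval of 7.84% to 9.52%. The share of all genes therefore lay above the interval of the Cpr share, and the share of genes of like length and spacing lay inside it. Intervals cover counting error only, and neighbouring genes can share a peak. The match is loose, since the ranges were applied to the other genes and all 70 Cpr genes were kept. Cpr65Ay at 556 bp and Cpr73D at 18590 bp were bound but lie outside the length range. The median length was 1094 bp for Cpr genes and 1679 bp for genes of like length and spacing.

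The bound genes were Cpr65Ay, Cpr73D, Cpr76Ba and Cpr100A, each coding for a cuticle protein. The sequences at their summits are shown because they are what the Worniu immunoprecipitation recovered near Cpr genes. Each is the 101 bases centred on a summit, from RefSeq Release 6, the dm6 assembly, plus strand, and capitals mark a match to 1 of 8 motifs searched on both strands.
Cpr65Ay, chr3L:6157649-6157749: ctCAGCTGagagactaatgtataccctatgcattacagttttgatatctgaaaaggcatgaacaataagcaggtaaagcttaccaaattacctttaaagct
Cpr73D, far start, chr3L:16956874-16956974: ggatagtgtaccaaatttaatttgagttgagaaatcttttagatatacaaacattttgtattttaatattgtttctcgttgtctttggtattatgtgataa
Cpr73D, near start, chr3L:16941429-16941529: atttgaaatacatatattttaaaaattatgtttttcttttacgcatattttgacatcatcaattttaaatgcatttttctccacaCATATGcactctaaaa
Cpr76Ba, chr3L:19516662-19516762: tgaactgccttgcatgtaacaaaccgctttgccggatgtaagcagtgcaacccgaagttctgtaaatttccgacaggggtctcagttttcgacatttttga
Cpr100A, chr3R:30865682-30865782: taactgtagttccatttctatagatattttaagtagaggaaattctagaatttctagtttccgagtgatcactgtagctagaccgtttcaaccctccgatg
Searched were CAGGTG, the Snail-type E-box, the Ase/Ac-type E-box CAGCTG, the Twist-type E-box CATATG, the GAGA element GAGAGAG, the promoter elements DRE TATCGATA and M1BP-type GGTCACACT, the Grh-type site AACCGGTT of the epidermal factor Grainy head, and TATAAA. None of these 5 windows held the Snail-type letters, which were in 2.04% of the 3045 conservative windows. The window at Cpr65Ay held CAGCTG, found in 2.73% of conservative windows, and the near-start window of Cpr73D held CATATG, found in 3.71%. The windows at Cpr76Ba and Cpr100A and the far-start window of Cpr73D held none of the 8. The window of a sixth, weak row in Cpr73D, which is described with that gene, is not printed because it is also annotated as UTR, and it held none of the 8. The GC content was 21.8% to 45.5% in the 5 printed windows and 63.4% in the sixth, beside a median of 30.7% over all conservative windows.

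The strongest of these peaks lay at Cpr76Ba (FBgn0036878), the first gene of the Cpr76B cluster, at chr3L:19517552-19518332 on the minus strand. Its peak at chr3L:19516530-19516893 had a signal of 135, rank 1216 of 3045 in the conservative list. The signal was set by the authors for each peak, and serves here only to describe and rank peaks of 1 list. In replicate 1 the row at this summit had a signal of 74.9 and in replicate 2 a signal of 64.7, and both thresholded lists of the single replicates held it. The summit lay in intergenic sequence 1620 bp downstream of the start and 840 bp past the 3' end of the gene. No other gene had a start within 2 kb, since the next was that of Cpr76Bb at 2937 bp.

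Cpr65Ay (FBgn0085300, chr3L:6158075-6158630, minus strand) had a peak of almost the same rank. The peak at chr3L:6157517-6157880 had a signal of 129, rank 1296. Replicate 1 had 63.5 and replicate 2 had 65.6 at this summit, but only the thresholded list of replicate 1 held it. The −log10 IDR was 3.37 in replicate 1 and 1.78 in replicate 2, where 2 is the limit of the thresholded lists. The summit lay 931 bp downstream of the start and 376 bp past the 3' end of the gene, and the nearest start was that of CG13297 at 322 bp. The peak is thus intergenic, between 2 genes, and closer to the neighbour's promoter.

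Cpr73D (FBgn0036680, chr3L:16939100-16957689, minus strand) was the longest of the 70 genes at 18590 bp and had peaks within 2 kb of both of its annotated starts. Downstream of the far start the peak at chr3L:16956742-16957105 had a signal of 116, rank 1498. Its summit lay 765 bp inside the gene, in an intron of Cpr73D and also in an intron of Ogdh, a gene for a subunit of the mitochondrial oxoglutarate dehydrogenase that overlaps it on the plus strand and has a start 515 bp away. Here replicate 2 was the higher, with 76.7 and a place in its thresholded list, and replicate 1 had 48.1 and none. For the near start the peak at chr3L:16941297-16941660 had a signal of 77.2, rank 2457, in an intron 1470 bp downstream. Replicate 1 had 41.3 and replicate 2 had 35.1 there, and neither thresholded list held it. Another, overlapping row of signal 8.76 lay 1268 bp downstream in the coding sequence. It had the same −log10 IDR as the peak of 77.2, 2.45, but no summit match within 100 bp in either replicate.

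Cpr100A (FBgn0039805, chr3R:30867521-30869184, plus strand), the last Cpr gene on its arm, had the weakest call. Its peak at chr3R:30865550-30865913 had a signal of 75.4, rank 2506, with 35.8 in replicate 1 and 37.8 in replicate 2, and neither thresholded list held it. The summit lay in intergenic sequence 1789 bp upstream of the start, and the next nearest start, of CG15545, was 6619 bp away. Of the 4 bound genes Cpr76Ba alone was therefore bound in the thresholded lists of both replicates. In the list of replicate 1 Cpr65Ay and Cpr76Ba were bound, 2.86% beside 14.1% of all genes. In that of replicate 2 Cpr73D and Cpr76Ba were bound, 2.86% beside 12.1% of all genes.

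**Figure D1:**
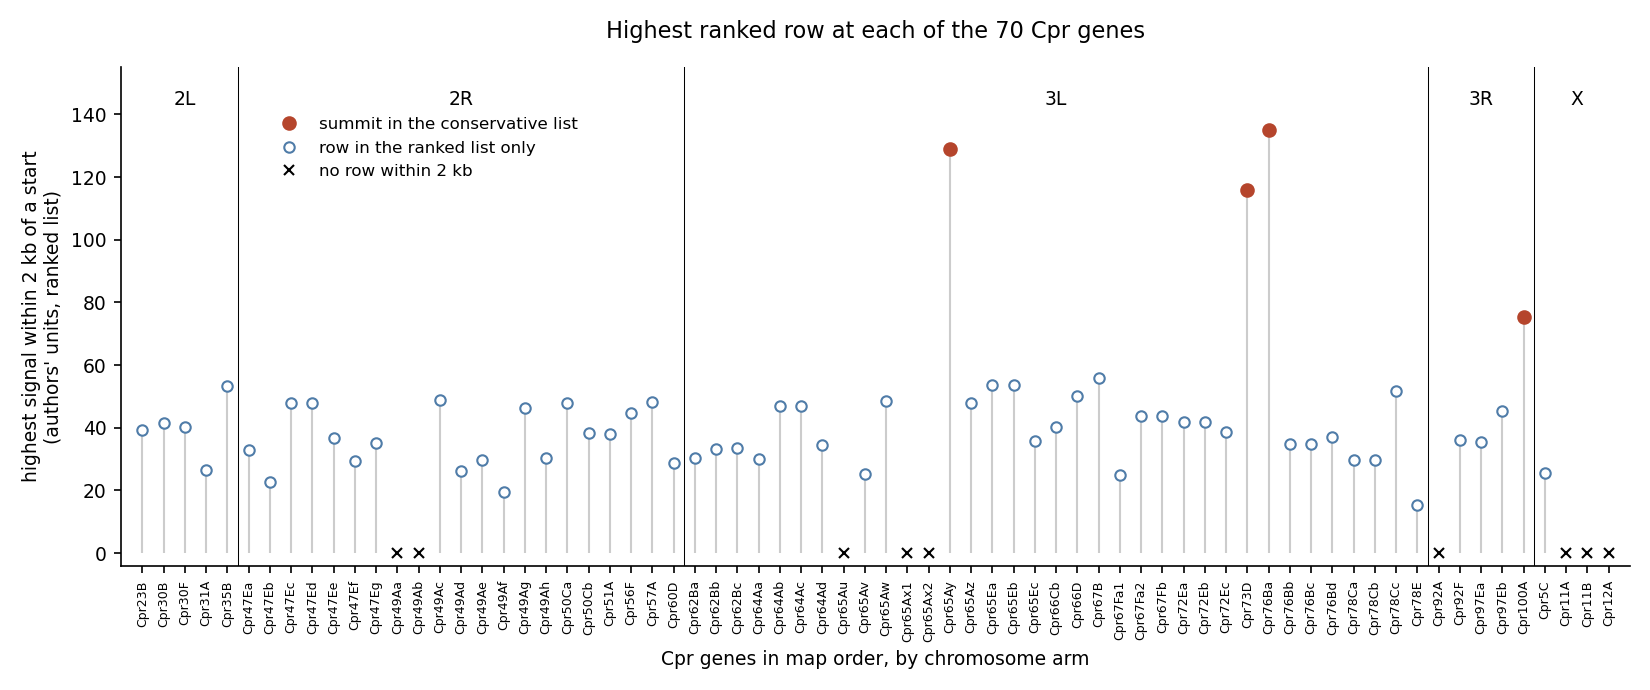
Highest signal of a row of the ranked list within 2 kb of a start (vertical axis, authors' units) for the 70 Cpr genes in map order by chromosome arm (horizontal axis). The 4 filled points, at 135, 129, 116 and 75.4, have a conservative summit, open points have a ranked row only and lie at 55.8 or lower, and the 9 crosses have no row.

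The shares were also compared at other distances from the start. Within 500 bp no Cpr gene had a conservative summit, 0 of 70, where the limit set by 3 counts is 4.29% and the upper end of the Wilson interval is 5.20%. Genes of like length and spacing had 4.31% there, inside that interval, and all genes 10.6%, above it. Within 1 kb the shares were 2.86% of Cpr genes (Cpr65Ay and Cpr73D), 5.13% of genes of like length and spacing and 12.7% of all genes. Within 5 kb they were 17.1% of Cpr genes, 12 in number, 20.5% of genes of like length and spacing and 27.3% of all genes. The Cpr interval at 5 kb, 10.1% to 27.6%, covers both of the other shares. From a Cpr gene to the nearest conservative summit the median distance was 18549 bp, beside 15482 bp for genes of like length and spacing and 13283 bp for all genes on arms with a peak. The lower quartiles were 8062, 6226 and 4288 bp in the same order. The upper quartiles went the other way, with 29824 bp for Cpr genes, 35706 bp and 32416 bp.

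**Figure D2:**
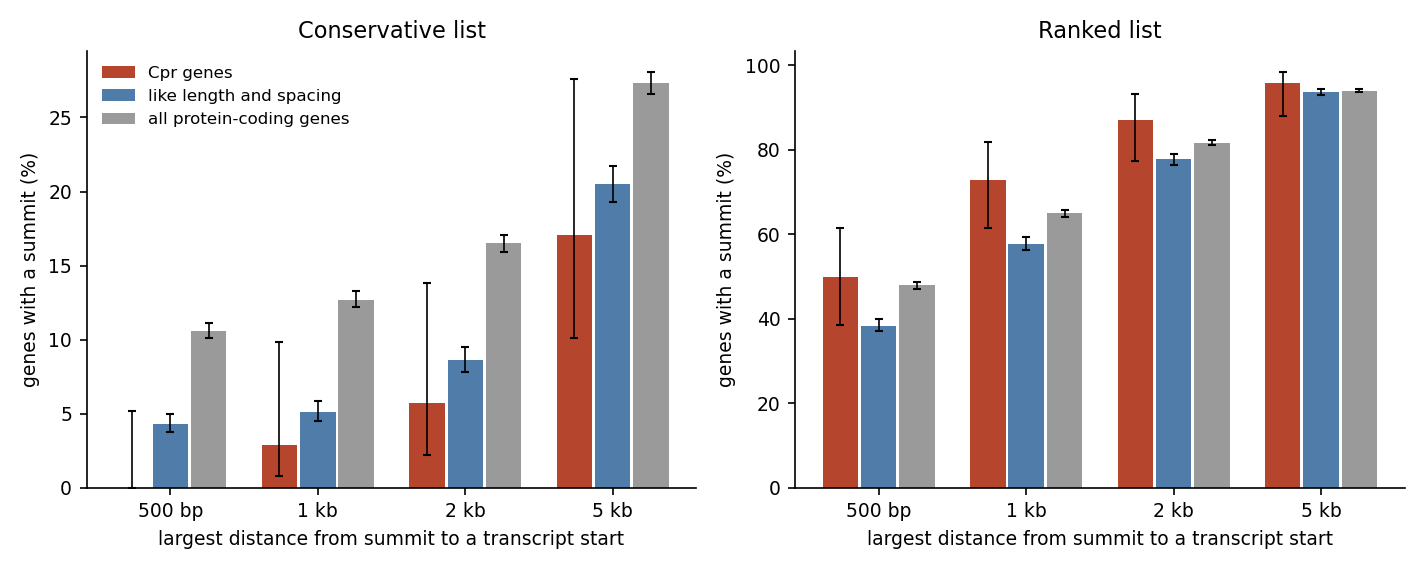
Share of genes with a summit within 500 bp, 1 kb, 2 kb or 5 kb of a transcript start, in percent, for the conservative list on the left and the ranked list on the right, with Cpr genes, genes of like length and spacing and all protein-coding genes side by side and 95% Wilson intervals as bars. In the conservative list the Cpr share is the lowest of the 3 at every distance, 5.71% at 2 kb, and in the ranked list it is the highest, 87.1% at 2 kb.

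The Cpr genes just outside the limit of 2 kb sat around 4 peaks. Cpr65Ec at 2181 bp and Cpr65Eb at 2236 bp stood on opposite sides of a summit in the intergenic gap of the Cpr65E cluster. That peak, at chr3L:7090841-7091204, had a signal of 85.3, with 40.5 in replicate 1 and 50.5 in replicate 2, and was in neither thresholded list. Cpr76Bb at 2937 bp and Cpr65Az at 3115 bp stood next to the peaks of Cpr76Ba and Cpr65Ay. Cpr31A at 3203 bp stood near a peak of 154 in an intron of Pen, an importin alpha gene, 516 bp from a start of Pen, which both replicates' thresholded lists held. The closest member just inside the limit was Cpr100A at 1789 bp.

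The ranked list, which keeps weak and irreproducible rows, gave the Cpr genes the highest share in place of the lowest. It holds 63100 rows, 62469 of them on the arms, or 4.54 per 10 kb, so that most genes have a row by this rule. Of the 70 Cpr genes 61 had a row within 2 kb of a start, 87.1%, interval 77.3% to 93.1%, beside 77.8% of genes of like length and spacing and 81.7% of all genes. Within 500 bp a row was found at 35 of the 70 Cpr genes, at 38.4% of genes of like length and spacing and at 47.9% of all genes. Within 1 kb it was 51 Cpr genes, 72.9%, beside 57.8% of genes of like length and spacing and 65.0% of all genes, and within 5 kb 67 Cpr genes, 95.7%, beside 93.7% and 94.0%. The Cpr genes had 2.56 rows per gene on average, beside 2.09 and 2.52. At 2 kb both of the other shares lay inside the Cpr interval. At 500 bp that interval ran from 38.6% to 61.4%, and at 1 kb from 61.5% to 81.9%, and the share of genes of like length and spacing lay below it at both distances, while that of all genes lay inside. At 5 kb, where it ran from 88.1% to 98.5%, both lay inside. The ranked list of replicate 1 had a row within 2 kb of 62 Cpr genes, beside 83.2% of all genes, and that of replicate 2 of 59 Cpr genes, beside 77.2%. The second ranked list made from both replicates had one at 56 Cpr genes, beside 74.4% of all genes, and the second thresholded list bound 4 Cpr genes, beside 16.6%.

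These rows were weak. The highest row of a Cpr gene with any row had a median signal of 38.6, beside 36.8 in genes of like length and spacing and 40.1 in all genes. The 90th percentile was 53.6 for Cpr genes, 80.5 for genes of like length and spacing and 149 for all genes. The maxima were 135, 1460 and 1620, over 61, 3322 and 11412 genes with a row. A maximum tends to rise with the number of genes, so the maxima are not comparable in size. A highest row above 115, the median of the conservative list, was found at 3 Cpr genes, 4.29%, beside 5.13% and 11.2%. A row with an IDR of 0.1 or lower was found at 9 Cpr genes, 12.9%, at 511 of the 4269 genes of like length and spacing and at 21.1% of all genes.

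**Figure D3:**
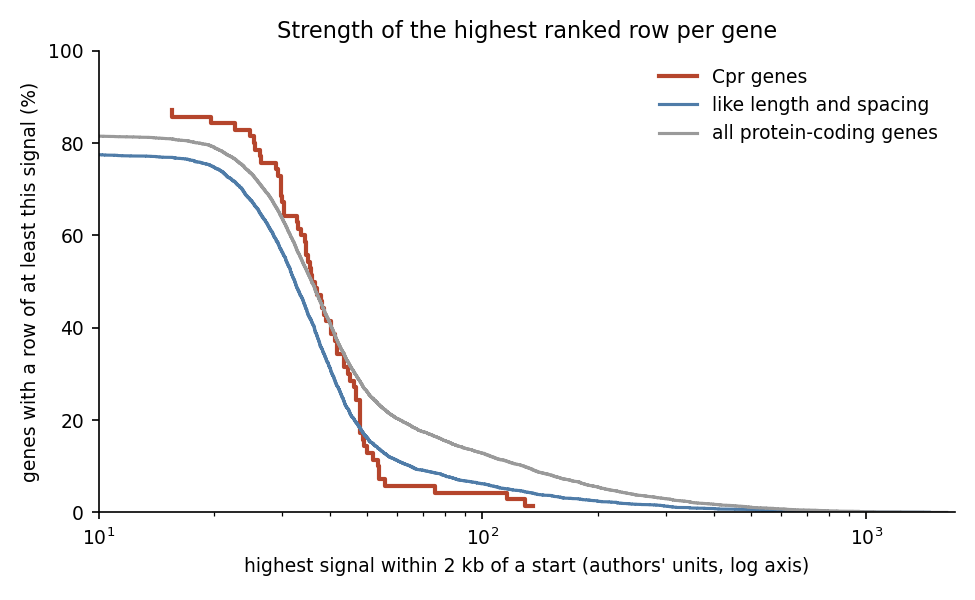
Share of genes, in percent, whose highest ranked row within 2 kb of a start has at least the signal on the horizontal log axis, in the authors' units, for Cpr genes, genes of like length and spacing and all protein-coding genes. The Cpr curve starts highest, at 87.1%, and ends at 135, while the other curves, which cover many more genes, run on to 1460 and 1620.

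After the 4 bound genes the highest rows were those of Cpr67B, Cpr65Eb, Cpr65Ea, Cpr35B, Cpr78Cc and Cpr66D. Cpr67B had a row of 55.8, rank 4396 of the ranked list, 1198 bp downstream of its start in its own coding sequence, with a highest row of 29.3 in the ranked list of replicate 1 and of 30.5 in that of replicate 2. Cpr65Ea and Cpr65Eb shared a row of 53.6, which lay 311 bp upstream of Cpr65Ea. The highest row within 2 kb of the start of each was 32.0 in the ranked list of replicate 1 and 26.4 in that of replicate 2. Cpr35B had a row of 53.4 located 1539 bp upstream, and Cpr66D one of 50.1 located 361 bp downstream in its coding sequence. The row of 51.8 at Cpr78Cc lay in the 3' UTR of its neighbour CG11309. The −log10 IDR of these rows was 0.786 to 1.66, below the limit of 2.

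The ranked rows near Cpr genes were also placed on the annotation and the genome sequence. There were 147 distinct ranked rows near Cpr starts, 29 of them counted for more than 1 Cpr gene, and 6 were in the conservative list. Neighbouring rows that carry the same IDR were counted separately, as those 361 and 560 bp downstream of the Cpr66D start, with a −log10 IDR of 0.808. Summits of the 147 rows lay in coding sequence in 34.7% of cases, in intergenic sequence in 40.1% and in introns in 16.3%. Rows near genes of like length and spacing lay in coding sequence in 48.2%, and 2016 of the 7760 lay in intergenic sequence. Rows near any protein-coding start lay in coding sequence in 35.2%, in intergenic sequence in 22.4% and in introns in 30.4%. Of all conservative summits 1.15% lay in coding sequence, 40.4% in intergenic sequence and 51.8% in introns. The median GC content within 50 bp of the summit was 48.5% for rows near Cpr genes, 48.5% for those near genes of like length and spacing, 46.5% for those near any start and 30.7% for conservative peaks. The letters CAGGTG were in 6.12% of the windows near Cpr genes, beside 4.95% of all ranked windows, and TATAAA in 8.16% beside 9.25%.

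By arm, 3 of the 35 Cpr genes on 3L and 1 of the 5 on 3R were bound, and none of the 21 on 2R, the 5 on 2L and the 4 on the X. Over all genes the bound share was 15.1% to 18.2% on these 5 arms. The 9 Cpr genes with no ranked row within 2 kb began, in map order, with Cpr49Aa, Cpr49Ab, Cpr65Au, Cpr65Ax1 and Cpr65Ax2. They included 3 of the 4 Cpr genes on the X, where 75.4% of all genes had a row. In the ranked lists of the single replicates 7 of these 9 genes did have a row in at least 1 replicate, with signals of 7.22 to 25.9, and 2 had none in either, Cpr65Au and a gene on the X.

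Of the 70 genes 47 stood in 11 clusters, in which neighbouring Cpr starts were at most 20 kb apart, and 23 stood alone. In the clusters 2 of the 47 genes were bound and among the lone genes 2 of the 23. The shares over all genes and over genes of like length and spacing were 16.5% and 8.64%. Over all arms the ranked list had 4.54 rows per 10 kb. The Cpr47E cluster, with 7 genes over 26.7 kb on 2R, held 24 ranked summits, 8.99 per 10 kb, and no conservative summit. The Cpr49A cluster, with 8 genes over 38.5 kb on the same arm, held 11, 2.85 per 10 kb, and no conservative summit either. The Cpr65A cluster on 3L, 30.3 kb long, mixes 7 Cpr genes with Lcp65A genes for larval cuticle proteins and with Acp65Aa for an adult one. It held 17 ranked summits, 5.60 per 10 kb, and 1 conservative summit, the peak beside Cpr65Ay. No ranked summit lay between 13.744 and 26.457 kb from the left end of that cluster. The compact Cpr72E cluster, with 3 genes over 4.74 kb, had the densest rows of the clusters of 3 or more, 14.8 per 10 kb, and none was conservative.

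**Figure D4:**
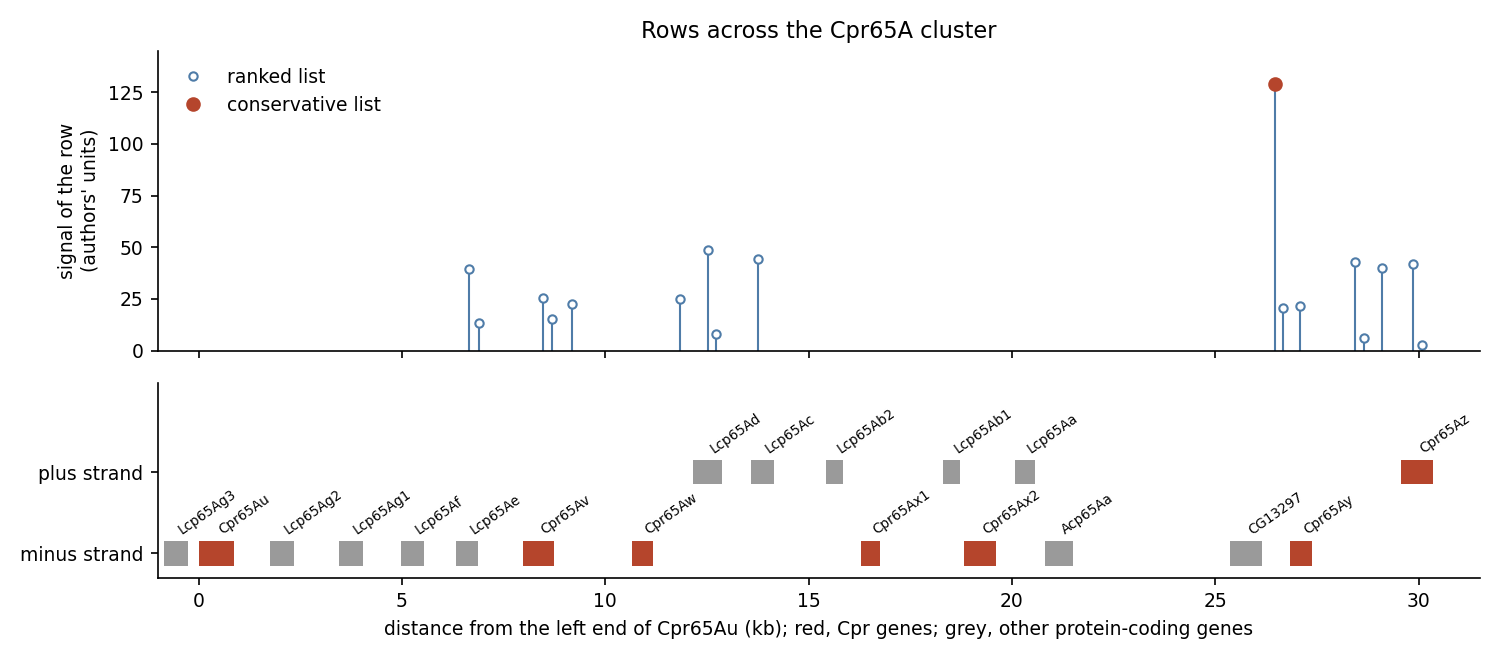
Summits across the Cpr65A cluster, with distance from the left end of Cpr65Au in kb on the horizontal axis, the signal of each row in the authors' units above and the genes of each strand below, Cpr genes in red and other protein-coding genes in grey. The filled point at 129 is the conservative peak between CG13297 and Cpr65Ay, and the stretch around Cpr65Ax1 and Cpr65Ax2 holds no row of the ranked list made from both replicates.

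Cpr65Ax1 and Cpr65Ax2 are close copies, and for such genes reads can fit both places. Their coding sequences were 100% identical, the longest stretch they share was 456 bp, and the 250 bases before their starts were 96.4% identical. Cpr67Fa1 and Cpr67Fa2 were next, with 96.5% identity in coding sequence and a longest shared stretch of 67 bp. All other pairs of Cpr genes within a cluster had coding sequences 63.9% identical or less. No source used here tells how reads with several matches were treated. The absence of rows at Cpr65Ax1 and Cpr65Ax2 from the ranked list of both replicates is therefore uncertain. In the single replicates' ranked lists Cpr65Ax1 had a highest row of 19.3 in replicate 2 and none in replicate 1. Cpr65Ax2 had 25.9 in replicate 1 and 19.3 in replicate 2. The 100 bases before each start are shown to let the copies be compared. Those of the 2 bound genes with TATAAA at the usual place of a TATA box follow. The bound genes Cpr65Ay and Cpr73D, which lack it there, are not shown. Each sequence is on the strand of its gene, with TATAAA in capitals.
Cpr65Ax1, chr3L:6147988-6148087, minus strand: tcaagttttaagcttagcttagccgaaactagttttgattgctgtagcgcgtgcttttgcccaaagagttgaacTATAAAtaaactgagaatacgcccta
Cpr65Ax2, chr3L:6150858-6150957, minus strand: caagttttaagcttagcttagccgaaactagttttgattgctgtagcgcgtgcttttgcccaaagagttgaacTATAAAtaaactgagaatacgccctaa
Cpr76Ba, chr3L:19518333-19518432, minus strand: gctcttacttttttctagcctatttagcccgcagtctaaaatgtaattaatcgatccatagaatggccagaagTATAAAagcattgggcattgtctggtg
Cpr100A, chr3R:30867421-30867520, plus strand: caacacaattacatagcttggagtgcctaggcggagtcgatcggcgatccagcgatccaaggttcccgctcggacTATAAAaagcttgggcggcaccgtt

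Promoters of Cpr genes held TATAAA at the usual place of a TATA box more often than promoters in general. The letters TATAAA, on the strand of the gene and starting 45 to 20 bp before the gene start, were found at 39 of 70 Cpr genes, 55.7%, interval 44.1% to 66.8%. They were found at 11.5% of genes of like length and spacing and at 8.81% of all genes. Of the bound genes Cpr76Ba and Cpr100A had it. It was present at 19 of the 35 Cpr genes with a ranked row within 500 bp of a start and at 20 of the 35 without one. Motifs typical of broadly active promoters were counted in the 250 bases before to 50 after Cpr starts, both strands: DRE in 1.43%, interval 0.253% to 7.66%, beside 6.63% of genes of like length and spacing and 9.36% of all genes, and the M1BP-type motif in 0 of 70, interval up to 5.20%, beside 3.84% and 6.04%. In both cases the share of genes of like length and spacing lay inside the Cpr interval and that of all genes above it. The Snail-type hexamer CAGGTG was in 15.7% of Cpr promoters, with 9.01% as the lower end of its interval, beside 10.3% of genes of like length and spacing and 9.31% of all genes. Of the other E-boxes, CAGCTG was in 11.4% of Cpr promoters, beside 14.4% and 17.6%, and CATATG in 5.71%, beside 8.01% and 7.81%. For these 3 E-boxes the shares of genes of like length and spacing and of all genes lay inside the Cpr intervals. A match of letters is not a binding site.

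**Figure D5:**
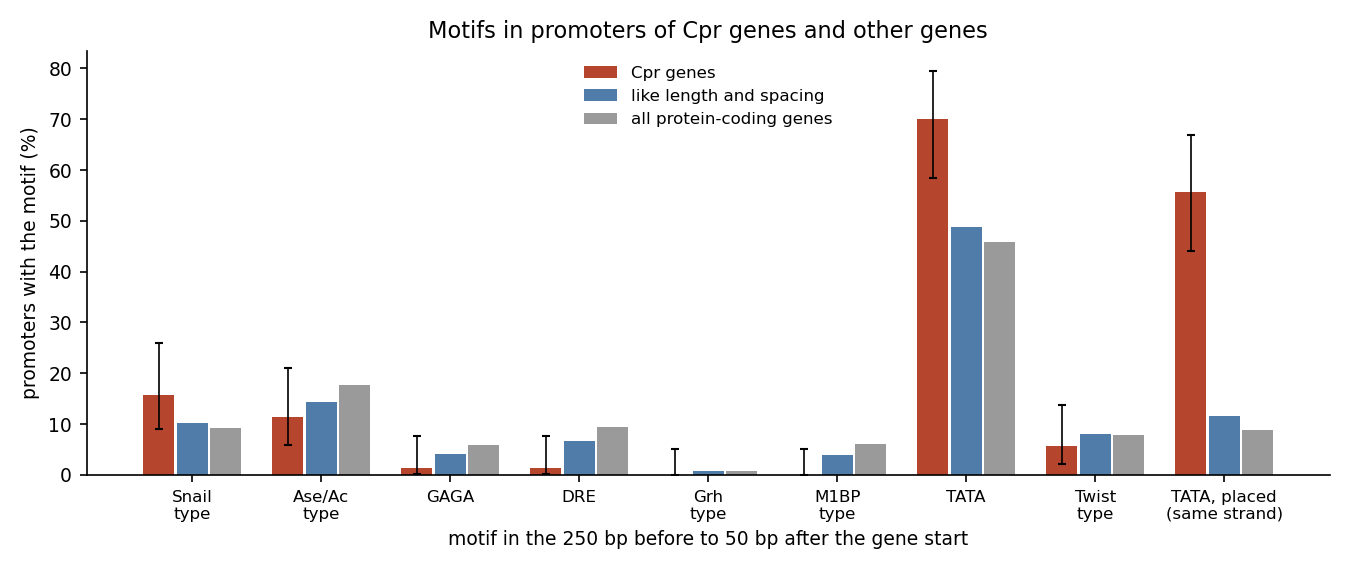
Share of promoters, in percent, with each motif in the 250 bp before to 50 bp after the gene start, for Cpr genes (with 95% Wilson intervals as bars), genes of like length and spacing and all protein-coding genes. The last group counts TATAAA on the strand of the gene starting 45 to 20 bp before the start, at 55.7% of Cpr genes, 11.5% of genes of like length and spacing and 8.81% of all genes.

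Other structural genes of the cuticle had no conservative summit within 2 kb of a start. The other Rebers-Riddiford and larval cuticle genes (Lcp, Ccp84A, Edg, Pcp, Acp and resilin genes) had 0 of 29 bound, the Tweedle genes, another family of cuticle proteins, 0 of 25, and the obstructor and Cpap genes, which code for secreted chitin-binding proteins, 0 of 10. Together this is 0 of 64, where 3 counts would be 4.69%, beside 16.5% of all genes. The share was 8.64% in the genes that are like the Cpr genes in length and spacing. The limit of 4.69% takes the 64 genes as independent, though some are close neighbours, as the Lcp65A genes in the Cpr65A cluster are. The median lengths of these lists were 713, 1088 and 2324 bp, beside 2164 bp for all genes, and the lists were not matched on length or spacing. With the Cpr genes, 4 of 134 structural genes were bound. Ranked rows within 2 kb were present at 20 of the 29, 18 of the 25 and 9 of the 10. Beside these stand 81.7% of all genes and 77.8% of the genes like the Cpr genes in length and spacing. The other Rebers-Riddiford and larval cuticle genes and the Tweedle genes lay below both shares. The obstructor and Cpap genes lay above both.

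Enzymes and regulators of the cuticle were bound in part, to be read beside 16.5% of all genes. Of 17 genes for chitin synthesis and organisation 2 were bound, 11.8%, interval 3.29% to 34.3%. These were Cht7, a chitinase gene, with 190 located 226 bp upstream of a start, and mmy, whose enzyme makes the sugar nucleotide for chitin, with 77.9 located 675 bp downstream. Cda4 and Cda5, chitin deacetylase genes, were not bound. Of 12 tanning genes, which harden and colour the cuticle, 0 were bound, with an interval of up to 24.2%, and b and Ddc were among them. Of 18 regulators of epidermis and cuticle 7 were bound, 38.9%, interval 20.3% to 61.4%. The highest were rib with 264, vri with 215, Eip75B with 195, located 24 bp from a start, and Hr4 with 134, while Blimp-1 and br were not bound. These regulators had a median length of 26892 bp, beside 1094 bp for Cpr genes, and were not matched on length or on number of starts.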

How the data were processed

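Per the labels, fragments of 200 to 800 bp from sonicated chromatin were immunoprecipitated and the assembly was dm6. The deposited notes list both replicates' alignments as inputs of the conservative list, beside files they do not describe. Aligner and peak caller: not given in the sources used here. No control library is analysed. Per the deposited files, every peak has a signal, which was not scaled between lists here, and each ranked row has an IDR, deposited as −log10. Every conservative peak has 2 or more in the ranked list.

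Peaks on 7 arms were used, 3045 of 3064 in the conservative list. Starts were those of all transcripts in Ensembl release 115 (BDGP6 annotation 54), with sequence from RefSeq Release 6, whose arm lengths hold all peak ends. Counting was done in Python 3.11.15 with pandas 2.3.3 and scipy 1.17.1, and was tested on planted summits. Identities are from global alignment in Biopython 1.88. A replicate's row matches a summit within 100 bp. Cpr genes, lists and the distance were chosen with earlier results of these data known. Named were all bound Cpr genes, the 10 with the highest ranked rows, the 5 unbound ones nearest a conservative summit, the first 5 of those without a row in map order, and up to 4 bound and 2 unbound genes of each other list. Distances, start choice, peak list and replicates were varied. No test across samples was possible with 1 group, and values are counts with Wilson intervals, and for a count of 0 the share that 3 counts would give. The sources do not say whether the replicates are separate embryo collections.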

Additional observations from a re-analysis of the deposited data

How the results depend on the processing

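The number of Cpr genes bound stayed at 3 to 5 of 70 with the gene start alone, with any base of the peak, with the second thresholded list, with the stronger 50% of peaks, without overlapping weaker peaks and with each peak given to the nearest start only, at any distance. In the last setting, which drops the limit of 2 kb, Cpr65Ec at 2181 bp took the place of Cpr65Ay. It was 0 within 500 bp, 2 within 1 kb, 12 within 5 kb and 2 to 2 without replicate 1 or 2, from the other one's own list. Genes of like length and spacing had 4.31% bound within 500 bp, 5.13% within 1 kb, 20.5% within 5 kb, 5.06% with the stronger 50% of peaks and 5.67% to 7.05% with 1 replicate left out, and 8.10% to 9.23% in the 7 other settings, of which weighting all other genes over 5 by 5 classes of length and spacing gave 8.88%. Cpr genes with a ranked row were 35 within 500 bp and 51 to 67 in the 7 other settings. In each of the settings run on both, the Cpr share of bound genes was below that of all genes and of genes of like length and spacing. These settings reuse the same peaks and are not independent. At each of the distances the share of genes of like length and spacing lay inside the Cpr Wilson interval. The same held in each replicate's own thresholded list at 2 kb. The causes were not tested. No paired analysis was possible because there is 1 group. Depth is unknown, and 70 genes in shared neighbourhoods limit the precision.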
